A study of Vitis vinifera with 16 samples.

Results

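Ovules of 2 grape varieties (Vitis vinifera), Zhongpu No. 18 (ZP) and Muscat Hamburg (MH), were compared at day 45 after flowering. Per the labels, the tissue was frozen with its skin kept, and libraries from total RNA were run on a NovaSeq X Plus of Illumina. No treatment is named, and neither is the plant, the vineyard or the number of berries behind a library. Each variety had 2 libraries at day 45, out of 16 libraries in a series that also covers days 35, 55 and 61. All genes of the deposited table with at least 1 FPKM in at least 2 of the 16 libraries were taken, 12637 of 13411 genes. FPKM is a fragment count scaled by transcript length and library size. The series concerns lignin and seedlessness of the stenospermocarpic kind, in which fertilisation takes place and the young seed then aborts. Which variety is seedless is not in the labels. Nor do they tie the pair of libraries of a variety to separate plants, so p-values reflect only how far these libraries scatter, which could be technical.

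A grape ovule that becomes a seed fills its endosperm and embryo with storage proteins and oil, while the inner layers of the seed coat thicken their walls with cellulose, xylan and lignin and harden. Lignin is made from monolignols, which are built from phenylalanine in the cytosol and joined in the wall by laccases and peroxidases. Small heat shock proteins and the larger chaperones of the HSP70, HSP90 and HSP101 families keep other proteins folded. They are made during stress and, in many plants, in maturing seeds. In whole ovules, fewer cells of a type and less RNA per cell cannot be told apart.

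The day 45 libraries held an estimated 2.67e+07 and 2.36e+07 fragments in ZP and 2.95e+07 and 2.28e+07 in MH, so that a single fragment of a 1 kb transcript gave 0.0339 to 0.0439 FPKM. Between the libraries of a variety the median SD was 0.0679 (log2) in ZP and 0.144 in MH. In the text, a difference is ZP minus MH on the log2(FPKM + 1) scale ± its standard error, and an adjusted p is that of limma after Benjamini-Hochberg adjustment across all 12637 genes. A gene is called at an adjusted p under 0.05. On this scale a change of a weakly expressed gene comes out too small. Genes not drawn by the rule for naming are marked as chosen after their values were seen.

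The 2 varieties differed in most of the genes tested at day 45. Of the 12637 genes 78.9% were called, 7556 higher in ZP (59.8%) and 2416 lower (19.1%). By more than 2-fold (limma's treat test), 3692 genes were higher (29.2%) and 785 lower (6.21%). The ZP and MH libraries did not overlap in 88.8% of genes. The whole distribution was shifted upward, with a median difference of 0.68, which has to be kept in mind for every count below. After median-ratio scaling of the libraries, which centres the typical gene near 0, the median was 0.10. The called genes then split into 5356 higher (42.4%) and 4707 lower (37.2%), and 303 genes were called in opposite directions with and without it. Of genes beyond 2-fold, the split became 1762 higher (13.9%) and 1629 lower (12.9%), with 0 in opposite directions; called genes of either direction were then 79.6% of all.

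**Figure D1:**
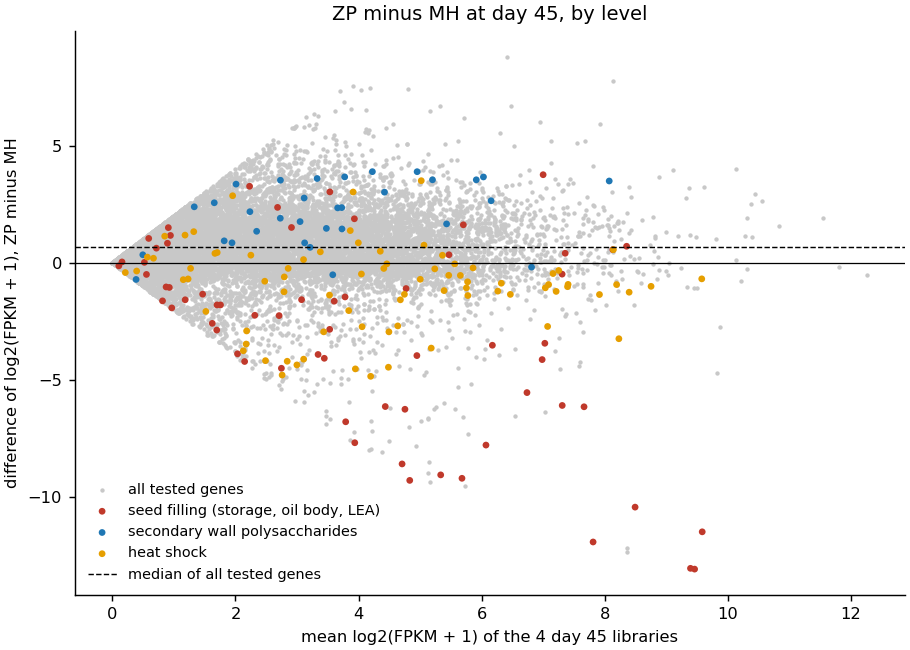
Difference between ZP and MH at day 45 (log2(FPKM + 1), ZP minus MH, vertical) against the mean level of the 4 day 45 libraries (horizontal) for 12637 genes, with the seed filling, secondary wall polysaccharide and heat shock genes in colour. Abundant seed filling genes reach -13.08, most secondary wall genes lie above the dashed median of 0.68, and most heat shock genes lie below it.

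The shift went with a few very abundant transcripts. The 10 most abundant genes made up 10.9% and 11.0% of all FPKM in the ZP libraries, against 58.4% and 50.8% in the MH libraries. To reach 50% of the FPKM took 446 genes in each ZP library, but 5 and 10 genes in the MH libraries. In ZP, 10472 and 10466 genes reached 1 FPKM, against 8599 and 8857 in MH. The most abundant genes of ZP included the translationally-controlled tumor protein homolog (LOC100251175) at 5960 and 5611 FPKM against 1532 and 1564 in MH, and a non-specific lipid-transfer protein-like gene (LOC100854121) at 4422 and 4636 against 313 and 250 in MH. The BURP domain protein RD22 (LOC100233124), known for its response to drought and abscisic acid, was at 3566 and 4130 FPKM in ZP and 490 and 505 in MH. A metallothionein-like protein type 3 gene, a gene model of the authors, was also among the 5 most abundant and did not pass the test, at 4131.7 and 4045.1 FPKM in ZP and 7996.7 and 4285.8 in MH (adjusted p = 0.19). A metallothionein-like protein 1 gene (LOC100267253) stood at 3711 and 3779 FPKM in ZP, and at 812 and 442 in MH.

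Storage protein transcripts were nearly absent from ZP and made up much of MH. Together the 23 storage protein genes took 0.0622% and 0.0955% of all FPKM in ZP, against 44.8% and 40.4% in MH. Cruciferin CRU1 (LOC100246409), an 11S globulin, was at 0.173 and 44.4 FPKM in ZP and at 62075 and 61507 in MH. The gene for 2S albumin (LOC100252101), a small sulfur-rich storage protein, was at 1.78 and 19.5 FPKM in ZP and at 101706.5 and 42123 in MH. Basic 7S globulin (LOC100240860) was at 0.0731 and 11.1 FPKM in ZP and at 14196 and 13753 in MH. In each of these genes both ZP libraries were far below both MH libraries. The differences were -13.05 ± 1.92, -13.08 ± 1.29 and -11.92 ± 1.36 (adjusted p at most 3.01e-05). Members of storage protein families have near-identical copies, and how shared fragments were assigned is not given in the sources used here.

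In these genes the 2 ZP libraries did not agree. Of 13 genes with at least 1000 FPKM in MH and a difference under -5, 11 were higher in ZP replicate 2 than in ZP replicate 1, 6 of them by more than 10 times. In ZP replicate 2 these genes stood at 0.0271% to 1.40% of their MH mean, with a median of 0.121%, against a median of 0.0142% in ZP replicate 1. Over all genes, 5 were more than 10 times higher in ZP replicate 2 at 5 FPKM or more, and 0 the other way round. Without ZP replicate 2 the difference of CRU1 was -15.68, and without ZP replicate 1 it was -10.41. Whether the traces come from the ovules of that library or from another library was not tested.

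Not every storage gene was lower in ZP. Of the 23, 13 were lower (19.1% of all genes), 12 of them by more than 2-fold (6.21%), and 8 were higher (59.8%). The list median was -1.63 against 0.68 over all genes. The glutelin type-A 3 gene (LOC100249816) was at 13.3 and 13.7 FPKM in ZP and at 0.288 and 0.777 in MH (3.26 ± 0.17, adjusted p = 9.59e-10). Other abundant genes of MH behaved like the globulins. The lipid-transfer protein A-like gene LOC100266074 was at 0.113 and 17.9 FPKM in ZP and at 33532.5 and 16709 in MH. An endochitinase gene (LOC100255900), of the enzymes that cut chitin, was at 0.226 and 17.9 FPKM in ZP and at 25087 and 19940.5 in MH.

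Most genes of oil bodies and of desiccation were called lower as well, against 19.1% of all genes. Of 16 oil genes 13 were lower (81.25%) and 3 higher, with a median of -3.14. Of 25 late embryogenesis abundant (LEA) and desiccation genes 18 were lower (72%) and 3 higher, with a median of -1.80. The summed level of the oil list was 533.1 and 532.6 FPKM in ZP and 8952.6 and 4689.7 in MH. That of the LEA and desiccation list overlapped between the varieties, at 1271.3 and 1248.4 FPKM in ZP and 1370.3 and 1133.0 in MH. The gene for oleosin 18.2 kDa (LOC100256947), a protein of the oil body surface, was at 3.72 and 3.33 FPKM in ZP and at 1364 and 727 in MH (-7.79 ± 0.47, adjusted p = 4.77e-09). Among the exceptions was diacylglycerol O-acyltransferase 1 (LOC100266364), which makes triacylglycerol, at 27.6 and 28.9 FPKM in ZP and 6.59 and 7.36 in MH. Another was desiccation-related protein PCC13-62 (LOC100252547), which overlaps another gene, at 466 and 472 FPKM in ZP and 33.7 and 33.8 in MH.

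**Figure D2:**
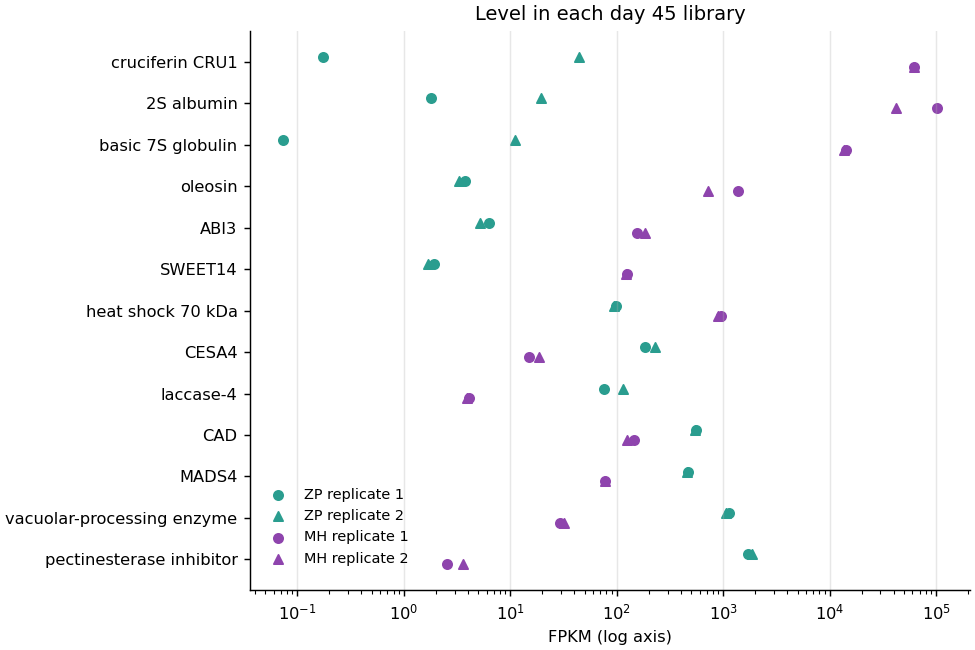
FPKM of 13 genes named in the text in each day 45 library (log axis), ZP above MH in each row, with circles for replicate 1 and triangles for replicate 2. For storage globulins the ZP libraries lie apart from each other as well as from MH, while the pair of libraries of a variety nearly coincides for genes such as MADS4 (464 and 454 FPKM in ZP, 78.4 and 78.1 in MH).

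The embryo and endosperm list had no common direction, and the members furthest apart were factors of seed maturation that were lower in ZP. The gene of ABI3 (LOC100854233), a B3 factor that switches on storage genes in Arabidopsis, was at 6.37 and 5.23 FPKM in ZP and at 155 and 186 in MH (-4.66 ± 0.22, adjusted p = 5.25e-10). FUS3-like (LOC100855410), another B3 factor of the same network, was at 0.503 and 1.38 FPKM in ZP and at 32.3 and 39.1 in MH (-4.27 ± 0.24, adjusted p = 2.68e-09). The bZIP factor gene LOC100255346, described as ABSCISIC ACID-INSENSITIVE 5-like protein 1, stood at 2.92 and 2.18 FPKM in ZP and at 85.1 and 120 in MH. A relative, ABSCISIC ACID-INSENSITIVE 5-like protein 6 (LOC104880856), went the other way, at 12.7 and 14.2 FPKM in ZP and at 5.39 and 3.03 in MH (1.51 ± 0.26, adjusted p = 0.000141); the call was lost after median-ratio scaling (0.69, adjusted p = 0.0546). Among all 22 members, 8 were higher (36.4%, against 59.8% of all genes) and 7 lower (31.8%, against 19.1%). The median was -0.13, against 0.68 over all genes.

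Ovule and seed coat regulators were all on the ZP side: 6 of 6 were higher (59.8% of all genes), with a median of 2.33. After median-ratio scaling it was 6 of 6 (42.4% of all genes). MADS4, a MADS-box gene that overlaps another gene, was at 464 and 454 FPKM in ZP and at 78.4 and 78.1 in MH (2.54 ± 0.13, adjusted p = 1.12e-09). The gene of TT2 (LOC100254224), a MYB factor of proanthocyanidin synthesis in the Arabidopsis seed coat, was at 92.6 and 93.7 FPKM in ZP and at 11.1 and 11.8 in MH. TRANSPARENT TESTA 1 (LOC100264302), a zinc finger factor of the same layer, was at 18.1 and 15.4 FPKM in ZP and at 1.45 and 1.58 in MH. MADS4, TT2 and TRANSPARENT TESTA 1 were thus measured above 1 FPKM in both varieties. The 47 flavonoid genes themselves were mixed, with 23 higher (48.9%, against 59.8% of all genes) and 14 lower (29.8%, against 19.1%). Their median was 0.26, and after median-ratio scaling 17 were higher and 18 lower.

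Genes of secondary wall polysaccharides were higher in ZP more often than genes at large. Of 32, 29 were higher (59.8% of all genes) and 2 lower, 23 by more than 2-fold (29.2% of all genes), and the median was 2.35. After median-ratio scaling 24 were higher and 3 lower. The cellulose synthase subunits that make secondary walls, all 3 chosen after their values were seen, moved by similar amounts. CESA4 (LOC100241197) was at 183 and 228 FPKM in ZP and at 15.0 and 18.5 in MH, CESA7 (LOC100248512) at 211 and 252 in ZP and at 16.6 and 18.2 in MH, and CESA8 (LOC100261696) at 111 and 140 in ZP and at 9.01 and 10.6 in MH. Their differences were 3.54 ± 0.15, 3.66 ± 0.13 and 3.54 ± 0.13 (adjusted p at most 1.38e-10), or 12.3-fold and 13.4-fold of the mean FPKM for the first and second.

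The xylan side of the wall behaved alike. Glucuronoxylan 4-O-methyltransferase 3 (LOC100255018), which caps xylan side groups, was at 68.6 and 73.2 FPKM in ZP and at 3.68 and 4.04 in MH (3.89 ± 0.14, adjusted p = 4.21e-11). A COBRA-like protein 4 gene (LOC100244586), of proteins that help order cellulose, was at 106 and 132 FPKM in ZP and at 6.44 and 7.70 in MH. The xylosyltransferase gene IRX9 (LOC100249957, chosen after its values were seen), of the xylan backbone, was at 56.3 and 63.5 FPKM in ZP and at 6.09 and 7.02 in MH. One of the 2 genes called lower was a putative xylan glucuronosyltransferase (LOC100245489), at 8.99 and 9.03 FPKM in ZP and 11.7 and 15.1 in MH (-0.51 ± 0.16, adjusted p = 0.0101); the call was lost without MH replicate 2. The other, a second fasciclin-like arabinogalactan protein 11 gene (LOC100267113, chosen after its values were seen), stayed under 1 FPKM in all 4 libraries. Of the NAC and MYB regulators of such walls 10 of 11 were higher (59.8% of all genes). Among them, NAC domain-containing protein 37 (LOC100243701) was at 18.4 and 22.1 FPKM in ZP and 0.703 and 0.877 in MH. MYB83 (LOC100243210) was at 12.7 and 14.0 FPKM in ZP and 0.718 and 0.848 in MH.

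Monolignol genes were called in both directions, and lower more often than genes at large. Of 59 genes 29 were higher (49.15%, against 59.8% of all genes) and 23 lower (38.98%, against 19.1%). By more than 2-fold 22 were higher and 10 lower (29.2% and 6.21% of all genes). The median was 0.24. After median-ratio scaling 24 were higher and 29 lower (42.4% and 37.2% of all genes), with a median of -0.26. The most abundant gene of each step was followed from the first step on. Phenylalanine ammonia-lyase (PAL, LOC100241575), the entry enzyme, was at 112 and 105.3 FPKM in ZP and at 122.8 and 142 in MH (-0.28 ± 0.12, adjusted p = 0.0474); leaving out ZP replicate 1, ZP replicate 2 or MH replicate 2 ended this call. Cinnamate 4-hydroxylase (C4H, LOC100253493) was at 390 and 416 FPKM in ZP and at 349 and 357 in MH and was not called (adjusted p = 0.168). The 4-coumarate-CoA ligase gene 4CL, which overlaps another gene, was at 30.9 and 28.6 FPKM in ZP and at 55.7 and 48.4 in MH (-0.78 ± 0.18, adjusted p = 0.00148). After median-ratio scaling PAL, C4H and 4CL were all called lower, at -1.20, -0.74 and -1.69 (adjusted p at most 0.0004755).

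In 3 middle steps the most abundant gene was higher in ZP. The hydroxycinnamoyltransferase HCT (LOC100265530) was at 42.1 and 45.7 FPKM in ZP and at 14.8 and 9.36 in MH (1.81 ± 0.30, adjusted p = 0.000101). The coumarate 3-hydroxylase C3H (cytochrome P450 98A2, LOC100263633) was at 87.3 and 117 FPKM in ZP and at 27.2 and 23.2 in MH (1.97 ± 0.22, adjusted p = 1.75e-06). Caffeoylshikimate esterase (CSE, LOC100261504) was at 99.7 and 95.2 FPKM in ZP and at 27.6 and 18.4 in MH (2.06 ± 0.33, adjusted p = 6.62e-05). All 3 kept a call after median-ratio scaling, at 0.92, 1.06 and 1.15. A methyltransferase of the guaiacyl branch, CCoAOMT (LOC100243978), did not differ beyond the spread: it was at 186 and 230 FPKM in ZP and at 210 and 187 in MH (adjusted p = 0.705). After median-ratio scaling CCoAOMT was called lower in ZP (-0.86, adjusted p = 0.000888).

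The most abundant gene was higher in each of the other steps described. The F5H gene (cytochrome P450 84A1, LOC100267863), which opens the syringyl branch, was at 13.4 and 15.3 FPKM in ZP and at 0.596 and 0.772 in MH (3.18 ± 0.16, adjusted p = 1.07e-09). Of the 3 F5H genes tested, 1 was higher and 2 lower, each by more than 2-fold. Their summed level was 15.2 and 17.2 FPKM in ZP and 15.7 and 14.9 in MH. Cinnamoyl-CoA reductase (CCR, LOC100255334) was at 180 and 187 FPKM in ZP and at 131 and 140 in MH (0.44 ± 0.12, adjusted p = 0.0049). Its sign turned after median-ratio scaling, where it was called lower (-0.49, adjusted p = 0.000462). Cinnamyl alcohol dehydrogenase (CAD, LOC100257308) was at 557 and 543 FPKM in ZP and at 147 and 126 in MH, 4.04-fold in the means (2.01 ± 0.13, adjusted p = 8.9e-09).

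Laccases, copper oxidases that couple monolignols in the wall, numbered 24, of which 15 were higher and 2 lower, with a median of 1.19 (13 and 8 after median-ratio scaling). The share higher was 62.5%, near the 59.8% of all genes. Their summed level was 774 and 942 FPKM in ZP and 155 and 187 in MH. A laccase-4 gene (LOC100240808) was at 76 and 115 FPKM in ZP and at 4.13 and 3.93 in MH, 23.7-fold in the means (4.23 ± 0.19, adjusted p = 2.69e-10). Laccase-17 (LOC100251378) was at 10.1 and 12.2 FPKM in ZP and listed at 0 in both MH libraries. The 2 laccases called lower, a laccase-15 gene (LOC100246423) and a laccase-14 gene (LOC100250072), both chosen after their values were seen, were at 0.688 to 1.07 FPKM in ZP and at 1.34 to 3.22 in MH; the laccase-14 call was lost without ZP replicate 1 or without either MH replicate. Of 27 class III peroxidases 20 were higher (74.1%, against 59.8% of all genes) and 2 lower (7.41%, against 19.1%). Their summed level was closer between the varieties than that of the laccases, at 798.5 and 761.9 FPKM in ZP and 703.1 and 663.2 in MH. Peroxidase 43 (LOC100260726) was at 13.5 and 12.8 FPKM in ZP and at 68.3 in both MH libraries (-2.29 ± 0.10, adjusted p = 2.36e-10). A second peroxidase 43 gene (LOC100245373, chosen after its values were seen) was at 63.1 and 70.6 FPKM in ZP and at 90.1 and 80.4 in MH (-0.35 ± 0.11, adjusted p = 0.0123), a call lost without replicate 1 of either variety. Dirigent proteins, which guide how coupled units join, numbered 17, with 12 higher (70.6%) and 1 lower (5.88%).

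**Figure D3:**
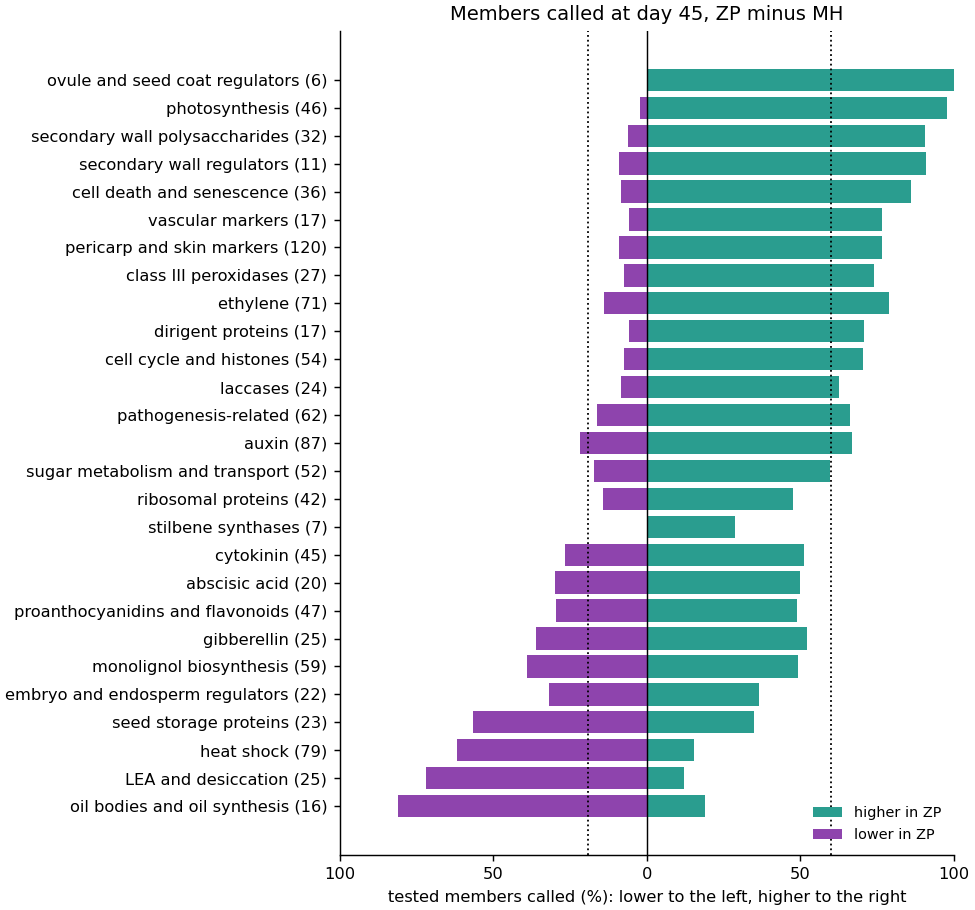
Percent of the tested members of each gene list called higher (right) and lower (left) in ZP at day 45, with the number of tested members in brackets and dotted lines at the values for all genes (59.8% and 19.1%). Ovule regulators, photosynthesis and secondary wall lists stand at the top, and heat shock, LEA and oil genes at the bottom.

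Heat shock genes were lower in ZP at day 45, against the direction of most genes. Of 79 genes 49 were lower (19.1% of all genes) and 12 higher, 22 of them lower by more than 2-fold (6.21% of all genes), with a median of -0.82. After median-ratio scaling 60 were lower and 7 higher. A heat shock 70 kDa gene (LOC100265708, chosen after its values were seen) was at 97.5 and 95.2 FPKM in ZP and at 961 and 885 in MH (-3.25 ± 0.16, adjusted p = 5.9e-10). The heat shock protein 83 gene (LOC100265661, chosen in the same way), of the HSP90 family, was at 51.2 and 51.4 FPKM in ZP and at 288 and 411 in MH (-2.72 ± 0.19, adjusted p = 2.49e-08). Neither gene had ZP and MH libraries near each other.

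Small heat shock proteins, which hold unfolded proteins in solution, were furthest apart. The 18.2 kDa class I gene (LOC100249533) was at 1.90 and 3.01 FPKM in ZP and at 117 and 81.2 in MH (-4.85 ± 0.24, adjusted p = 8.52e-10). The 18.1 kDa class I gene (LOC100253085) was at 2.36 and 2.06 FPKM in ZP and at 74.3 and 72.2 in MH (-4.53 ± 0.14, adjusted p = 1.74e-11). The 17.1 kDa class II gene (LOC100266315) was at 3.77 FPKM in both ZP libraries and at 133 and 81.6 in MH. One member went strongly the other way, a class I gene (LOC100262206) at 112 and 104 FPKM in ZP and at 9.32 and 7.99 in MH (3.50 ± 0.19, adjusted p = 1.53e-09). Heat shock genes come in near-identical copies, so single members are uncertain.

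The heat shock difference of day 45 was not that of the other days. At day 35, 52 of the 79 genes were higher in ZP (45.8% of all genes) and 11 lower (31.1%). At days 55 and 61, 31 were higher on each day (56.9% and 55.5% of all genes) and 19 and 17 lower (21.3% and 19.2%). Of all tested genes 211 were called higher at day 35 and lower at day 45, and 30 of these were heat shock genes. The summed level of the list in ZP was 13780 and 13630 FPKM at day 35, 3864 and 3706 at day 45, 5387 and 5656 at day 55, and 3396 and 3282 at day 61. In MH it was 6685 and 6680 FPKM at day 35, 7876 and 8101 at day 45, 5487 and 5715 at day 55, and 5512 and 5222 at day 61. The sum was thus lower at day 45 than at day 35 in ZP, and higher in MH; this change over days was not tested. Sampling hour and temperature are not given in the labels, so the part of either in this pattern was not tested.

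A departure is the difference at day 45 minus the mean difference at days 35, 55 and 61. By more than 2-fold, 2.88% of all genes departed, 263 upward (2.08%) and 101 downward (0.799%). After median-ratio scaling it was 2.53%. Of the 79 heat shock genes 31 departed downward and 1 upward, with a median departure of -1.23 against 0.16 over all genes. After median-ratio scaling 35 departed downward (1.2% of all genes), and leaving out any 1 of the day 45 libraries left 26 to 29. The heat shock factor gene HSF30 (LOC100245740, chosen after its values were seen), of the factors that switch on heat shock genes, was at 40.6 and 39.7 FPKM in ZP and at 68 and 75 in MH at day 45. Its difference was -0.82 at day 45, against 2.14, 2.93 and 2.44 at days 35, 55 and 61, a departure of -3.32 ± 0.15 (adjusted p = 7.79e-07). HSP101, chosen in the same way, departed by -1.78 ± 0.14 (adjusted p = 0.0026).

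Secondary wall genes departed in the other direction. Of the 32 polysaccharide genes 12 departed upward (2.08% of all genes) and 0 downward, and 9 to 13 did so without 1 of the day 45 libraries. After median-ratio scaling 8 departed upward (1.33% of all genes). The list median was 0.25 at day 35, 2.35 at day 45, 1.28 at day 55 and 1.51 at day 61. At day 35, 14 of the 32 were higher in ZP (45.8% of all genes) and 12 lower (31.1%). Of those 12, 10 were higher in ZP at day 45. Over all genes, 957 of the 3925 that were lower at day 35 were higher at day 45. The summed level in ZP was 1572 and 1587 FPKM at day 35, 2149 and 2659 at day 45, 1121 and 1154 at day 55, and 963 and 882 at day 61. In MH it was 1349 and 1086 FPKM at day 35, 380 and 383 at day 45, 385 and 354 at day 55, and 261 and 263 at day 61. The level was highest at day 45 in ZP, and at day 35 in MH.

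Single wall genes also had their largest difference at day 45. Fasciclin-like arabinogalactan protein 11 (LOC100250171, chosen after its values were seen), a wall protein of fibre and vessel cells, was at 30.03 and 38.2 FPKM in ZP and at 1.68 and 2.10 in MH at day 45. Its difference was -2.42 at day 35, 3.595 at day 45, 1.46 at day 55 and 1.38 at day 61, a departure of 3.46 ± 0.23 (adjusted p = 1.45e-05). A second laccase-17 gene (LOC100256283, chosen after its values were seen) was at 120 and 145 FPKM in ZP and at 18.7 and 22.9 in MH, and differed by -2.27, 2.61, 0.08 and 0.59 at the 4 days. Its departure was 3.15 ± 0.18 (adjusted p = 6.36e-06). Of the 24 laccases 5 departed upward (2.08% of all genes) and 0 downward (0.799%). Without ZP replicate 2 the 5 became 3.

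**Figure D4:**
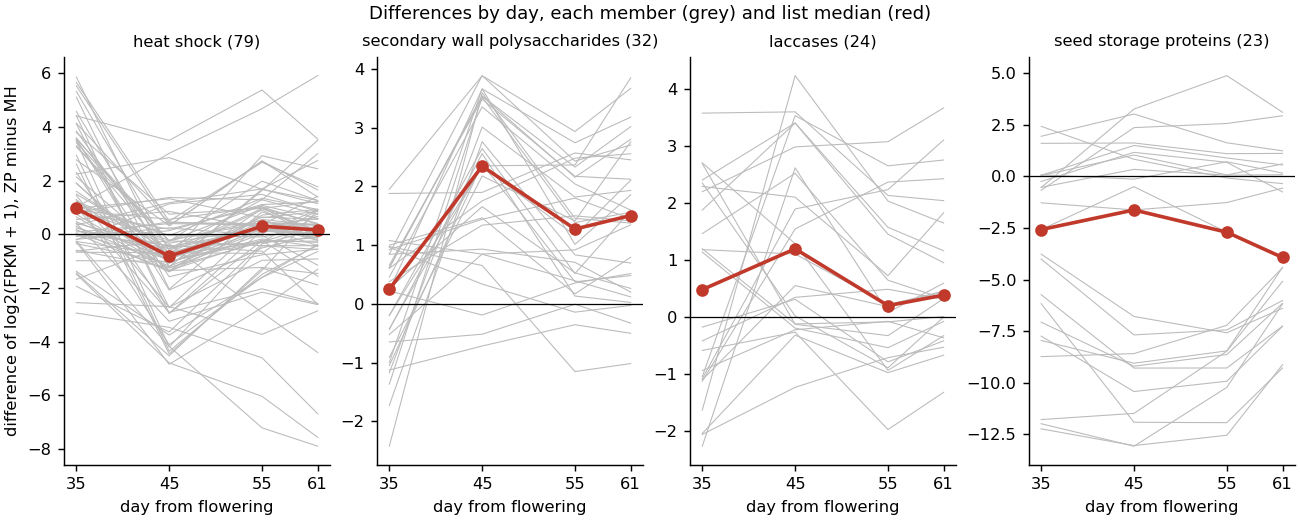
Difference between ZP and MH (log2(FPKM + 1), ZP minus MH) at days 35, 45, 55 and 61 for the members of 4 lists, each member as a grey line and the list median in red. The heat shock median was 0.96 at day 35, -0.82 at day 45, 0.30 at day 55 and 0.16 at day 61, and the secondary wall median was highest at day 45 (2.35).

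Most of the remaining day 45 differences were shared with the neighbouring days. Of the 4477 genes beyond 2-fold at day 45, 82.0% were called in the same direction at day 35, 97.2% at day 55 and 92.5% at day 61. On all 3 other days 3429 (76.6%) were called the same way, 2837 higher and 592 lower, and 2 the other way. Both of these, chosen after their values were seen, were lower in ZP at day 45 and higher on the other days. They were a heat shock cognate 70 kDa protein 2 gene (LOC100265651), at 152 and 147 FPKM in ZP and 369 and 402 in MH, and a gene described as the ultraviolet-B receptor UVR8 (LOC100247802), at 19.97 and 22.5 FPKM in ZP and 56.4 and 55.4 in MH. Over the 12637 genes the Pearson correlation of the differences with those of day 45 was 0.69 at day 35, 0.90 at day 55 and 0.81 at day 61, as a description only, since genes are not replicates. Of 251 genes with at least 10 FPKM in both ZP libraries and under 1 FPKM in both MH libraries, 119 stayed under 1 FPKM in all 8 MH libraries of the series. Of 100 genes the other way round, 31 stayed under 1 FPKM in all 8 ZP libraries.

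**Figure D5:**
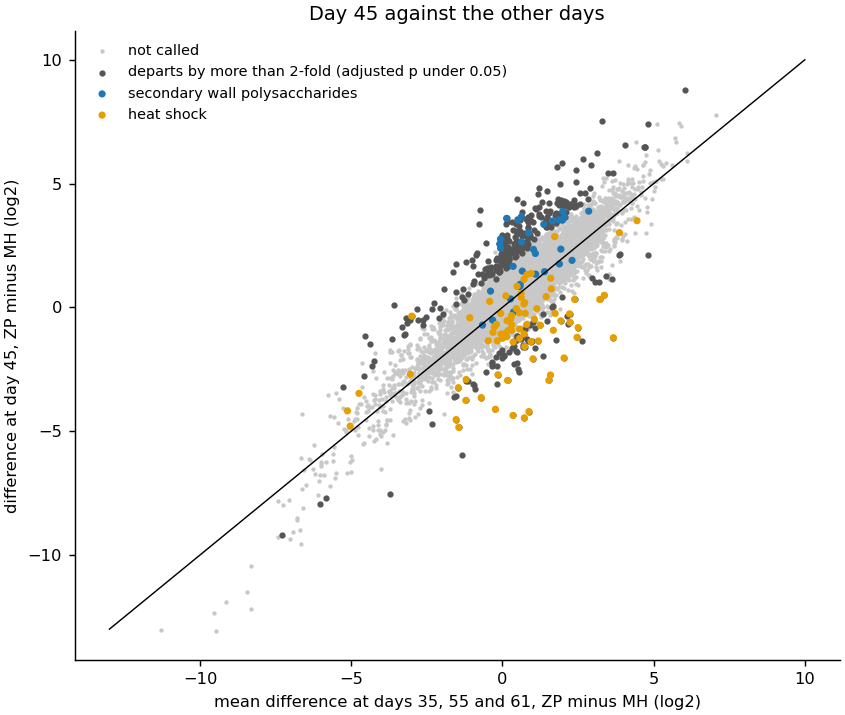
Difference between ZP and MH at day 45 (vertical) against the mean difference at days 35, 55 and 61 (horizontal) for 12637 genes (log2), with equality as a line, genes that depart from it by more than 2-fold in dark grey and 2 lists in colour. Heat shock genes lie below the line (31 of 79 called) and secondary wall polysaccharide genes above it (12 of 32 called).

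Outside these lists, the extensin-related gene MRIP1 departed by 4.69, at 20.8 and 28.9 FPKM in ZP and 0.276 and 1.21 in MH at day 45. A germin-like protein 5-1 gene (LOC100260641) departed by 4.13, at 15.4 and 18.1 FPKM in ZP and 0.846 and 0.603 in MH. Downward, a GDSL esterase/lipase gene (LOC100251646), of a large family of lipid hydrolases, was at 0.0942 and 0.107 FPKM in ZP and at 63.2 and 71.0 in MH. Its difference was -5.95 ± 0.18 at day 45, and -0.11, -2.56 and -1.30 at days 35, 55 and 61. A basic blue protein gene (LOC100248861), of small copper proteins of the cell surface, was at 186 and 223 FPKM in ZP and at 0.0837 and 0.108 in MH (7.54 ± 0.13, adjusted p = 4.26e-13). The difference was 1.88, 5.54 and 2.44 on the other days. The cytochrome P450 gene CYP82D47 (LOC100245555) was at 58.1 and 57.9 FPKM in ZP and at 0.0729 and 0.0236 in MH. Early nodulin-like protein 1 (LOC100267820) was at 136 and 119 FPKM in ZP and at 1.495 and 1.51 in MH, with a difference of -1.78 at day 35.

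Of the genes furthest up in ZP at day 45, a pectinesterase inhibitor gene (LOC104877746), whose product restrains enzymes that modify pectin, was at 1695 and 1873 FPKM in ZP and at 2.56 and 3.57 in MH, 582-fold in the means (8.79 ± 0.22, adjusted p = 4.24e-12). PR1, the basic form of pathogenesis-related protein 1, was at 167 and 159 FPKM in ZP and at 0.0494 and 0 in MH. A gene described as organ-specific protein P4-like (LOC100852930) was at 246 and 234 FPKM in ZP and at 0.319 and 0.413 in MH. A nitrate and peptide transporter of the family NRT1/PTR (LOC100250961) was at 400 and 407 FPKM in ZP and at 2.71 and 3.15 in MH. Snakin-2 (LOC100266028), a cysteine-rich peptide that responds to gibberellin, was at 866 and 935 FPKM in ZP and at 11.0 and 5.48 in MH.

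Genes of cell death and of other berry tissue were higher in ZP more often than the 59.8% of all genes, of which 19.1% were lower. Of 36 cell death and senescence genes 31 were higher (86.1%) and 3 lower (8.33%), with a median of 1.61. A vacuolar-processing enzyme gene (LOC100251259), of proteases that mature vacuolar proteins and take part in cell death, was at 1136 and 1067 FPKM in ZP and at 29.6 and 31.6 in MH (5.12 ± 0.17, adjusted p = 2.2e-11). A paralog (LOC100260773) was at 38.2 and 48.5 FPKM in ZP and at 807 and 876 in MH (-4.26 ± 0.20, adjusted p = 4.15e-10). The cysteine protease XCP1 (LOC104877917), of dying xylem cells, was at 26.6 and 27.3 FPKM in ZP and 1.73 and 1.63 in MH.

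Of 46 photosynthesis genes 45 were higher (97.8%, against 59.8% of all genes) and 1 was lower, with a median of 2.13 (36 and 1 after median-ratio scaling). The lower one was a Rubisco small chain gene (LOC100256536), at 11.1 and 8.69 FPKM in ZP and 148 and 135 in MH. The list median was larger on the other days, at 2.35, 4.30 and 2.85 at days 35, 55 and 61. The median departure was -1.01, against 0.16 over all genes. At day 45 the summed level of the list was 3228 and 3033 FPKM in ZP and 1079 and 788 in MH. The list held 1 gene at 0 in both MH libraries and 0 genes at 0 in both ZP libraries. Of 120 pericarp and skin markers 92 were higher (76.7%) and 11 lower (9.17%), with a summed level of 5690 and 5747 FPKM in ZP and 4284 and 4019 in MH. Of these, 0 were at 0 in both ZP libraries and 4 in both MH libraries. Of 17 vascular markers 13 were higher (76.5%) and 1 lower, at 434 and 426 FPKM in ZP and 145 and 109 in MH in sum. Per the labels the skin was kept. Markers of these tissues moved in the same direction as most wall, cell death and ethylene genes, and their part in those results was not tested.

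Sugar genes had members far apart in both directions. The sugar exporter gene SWEET14 (LOC100266643) was at 1.93 and 1.67 FPKM in ZP and at 125 and 121 in MH (-5.47 ± 0.17, adjusted p = 1.47e-11). Sucrose synthase 2 (LOC100243135), which splits sucrose, was at 42.9 and 38.2 FPKM in ZP and at 749 and 1055 in MH (-4.42 ± 0.26, adjusted p = 3.59e-09). Soluble beta-fructofuranosidase (LOC100256970), an invertase of the vacuole, was at 74.7 and 70.8 FPKM in ZP and at 1.99 and 1.84 in MH (4.66 ± 0.10, adjusted p = 1.49e-12). The list as a whole, 52 genes, lay near the share over all genes. It had 31 higher (59.6%, against 59.8% of all genes) and 9 lower (17.3%, against 19.1%). After median-ratio scaling 23 were higher and 22 lower.

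The hormone lists differed in their share of higher genes, which was 59.8% over all genes. Of 71 ethylene genes 56 were higher (78.9%) and 10 lower, and 46 and 11 after median-ratio scaling. An ethylene-forming oxidase gene (1-aminocyclopropane-1-carboxylate oxidase, LOC100232928, which overlaps another gene) was at 53.3 and 52.4 FPKM in ZP and at 2.02 and 2.13 in MH. Against that, the factor RAP2-3 (LOC100249982) was at 19.6 and 18.2 FPKM in ZP and at 340 and 268 in MH. Of 87 auxin genes 58 were higher (66.7%) and 19 lower. The repressor IAA14 (LOC100254530) was at 54.6 and 56.6 FPKM in ZP and at 0.0854 and 0.0369 in MH.

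Gibberellin genes gave 13 higher (52%) and 9 lower of 25, and 11 each way after median-ratio scaling. The enzymes that inactivate gibberellin were among the higher ones: a gibberellin 2-beta-dioxygenase gene (LOC100244543) was at 229 and 265 FPKM in ZP and at 5.73 and 6.91 in MH (5.08 ± 0.13, adjusted p = 4.32e-12). Gibberellin 2-beta-dioxygenase 2 (LOC100258599, chosen after its values were seen) was at 172 and 162 FPKM in ZP and at 16.2 and 19.4 in MH. Gibberellin 3-beta-dioxygenase 1-like (LOC100265167), which makes the active hormone, was at 15.7 and 15.2 FPKM in ZP and at 0.216 and 0.160 in MH. The gene of the DELLA repressor SLR1 (LOC100249084) and that of the receptor GID1B (LOC100249385), both chosen after their values were seen, were higher by 2.23 ± 0.18 and 1.60 ± 0.14 (adjusted p at most 2.13e-07). Gibberellin 20 oxidase 3 (LOC100249987), also chosen so, was at 0.575 and 0.391 FPKM in ZP and at 6.89 and 7.95 in MH.

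Cytokinin genes gave 23 higher (51.1%) and 12 lower of 45, and 16 and 19 after median-ratio scaling. Cytokinin dehydrogenase 5 (LOC100267760), which degrades the hormone, was at 79.5 and 83.4 FPKM in ZP and at 3.45 and 3.49 in MH (4.21 ± 0.12, adjusted p = 1.1e-11). Of 20 abscisic acid genes 10 were higher (50%) and 6 lower, and 7 and 9 after median-ratio scaling. Abscisic stress-ripening protein 2 (LOC100250281) was at 899 and 912 FPKM in ZP and at 168 and 100.6 in MH, while ABSCISIC ACID-INSENSITIVE 5 (LOC100247734) was at 2.01 and 1.89 FPKM in ZP and at 10.1 and 11.9 in MH.

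Cell cycle and histone genes were called higher more often than genes at large (70.4% against 59.8%) and lower less often (7.41% against 19.1%). Ribosomal protein genes were called less often in both directions (47.6% and 14.3%). Of 54 cell cycle and histone genes 38 were higher and 4 lower, with a median of 0.86, and 27 and 11 after median-ratio scaling. Of 42 ribosomal protein genes 20 were higher and 6 lower, with a median of 0.54, and 7 and 15 after it. The cell cycle and histone list leaned the other way on day 35, with 35 genes lower in ZP and 8 higher. In 24 of its 54 genes the call turned from lower on day 35 to higher on day 45, against 957 of all 12637 genes. Of 62 pathogenesis-related genes 41 were higher (66.1%, against 59.8% of all genes) and 10 lower (16.1%, against 19.1%). Their summed level nevertheless was 3446 and 3600 FPKM in ZP and 25630 and 20387 in MH. Of the MH sums the endochitinase LOC100255900 alone made up 25087 and 19940.5. Of 7 stilbene synthases 2 were higher (28.6%, against 59.8% of all genes) and 0 lower.

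Transcription factor families, grouped by the family names in the table, did not move alike. All counts are read against 59.8% higher and 19.1% lower over all genes. Of the SBP family 15 of 16 were higher and 0 lower, of TCP 15 of 18 and 2, of WRKY 30 of 40 and 4, and of NAC 30 of 42 and 6. SET and PHD genes, which write or read chromatin marks, gave 5 higher and 6 lower of 22, and 5 and 5 of 19. After median-ratio scaling 12 SBP and 15 TCP genes were higher, and 14 SET and 15 PHD genes lower.

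Single factors with wide gaps, all chosen after their values were seen, lay on both sides. The transcription factor bHLH106-like gene (LOC100256680) was at 89.0 and 85.1 FPKM in ZP and at 0.114 and 0.0294 in MH (6.36 ± 0.11, adjusted p = 4.26e-13). The homeobox-leucine zipper gene ATHB-12 (LOC100252202) was at 70.5 and 71.7 FPKM in ZP and at 0.392 and 0.296 in MH, with a difference of -0.31 at day 35. NAC transcription factor 29 (LOC104879728) was at 66.1 and 62.1 FPKM in ZP and at 1.04 and 1.65 in MH. On the other side, TGA2.2 (LOC100262335), a bZIP factor, was at 1.34 and 1.501 FPKM in ZP and at 52.4 and 64.2 in MH (-4.61 ± 0.13, adjusted p = 8.85e-12), and WRKY transcription factor 24 (LOC100267186) was at 0.171 and 0.0646 FPKM in ZP and at 26.6 and 16.9 in MH.

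In the coordinates of the deposited table, which for named RefSeq genes equal those of assembly ASM3070453v1, CRU1 lies on chromosome 7 from 6658898 to 6660930 and CESA4 on chromosome 7 from 7571877 to 7576453, both on the minus strand. HSF30 lies on chromosome 4 from 929822 to 932235 and the heat shock 70 kDa gene (LOC100265708) on chromosome 11 from 8524426 to 8526583, both on the minus strand. The laccase-4 gene (LOC100240808) lies on chromosome 8 from 17152837 to 17156098 and the vacuolar-processing enzyme gene (LOC100251259) on chromosome 9 from 22827035 to 22830595, both on the plus strand. These spans are whole genes.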

How the data were processed

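Per the file headers, the authors deposited an FPKM table with gene positions and descriptions. Aligner, counting tool, use of strand and the handling of shared fragments are not given in the sources used here. Of 13411 genes, 12540 matched RefSeq symbols of ASM3070453v1 at identical coordinates, and 825 were the authors' own gene models. All 16 per-sample columns were used.

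A gene was kept when 2 or more of the 16 libraries reached 1 FPKM, and limma 3.58.1 (R 4.3.3) was fitted to log2(FPKM + 1) with 8 group means, 8 residual degrees of freedom and a trended prior variance. Contrasts were ZP minus MH at day 45, and its departure from the mean of the other 3 days, whose libraries it does not share. The treat test asked for more than 2-fold (log2 threshold of 1). P-values were two-sided. With 2 libraries per group, no exact permutation test of a single gene could pass 0.05. The code was tested on simulated data, and the fallback for FPKM in the planned design was used. Python 3.11.15 made the summaries.

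Depth was estimated from steps between low values. In 4673 genes (34.8%) all nonzero day 45 values, scaled by relative depth, were whole multiples of a step (tolerance 0.06). How many of these fitted by coincidence was not tested. Of these genes, 934 shared the commonest product of step and gene span, which set the scale.

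Lists are patterns on descriptions; the comparison, the members and the lists were chosen with earlier results of these data known. Named genes have a mean of 10 FPKM or more: the 10 largest rises and falls, the top gene of each of 11 monolignol steps, up to 3 called members and 1 opposite member per list, the 6 largest departures each way and the 5 most abundant genes per variety, some left out for length. The gene of 1 monolignol step is not reported here. Alternatives were a pseudocount of 0.1, no filter or one at 5 FPKM, median-ratio scaling, quantile normalization, rescaling without the seed filling genes, the 4 day 45 libraries alone, a replicate block, no trend, and each library left out. No sequences were used.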

Additional observations from a re-analysis of the deposited data

Results flagged for a closer look

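In the genes below, the difference between ZP and MH at day 45 departed from the mean difference at days 35, 55 and 61 by more than 2-fold (limma's treat test with Benjamini-Hochberg adjustment over 12637 genes, adjusted p at most 0.0291). Values are departures on the log2(FPKM + 1) scale. A positive one means that the difference at day 45 lay above the mean of the other days. It need not be the largest of the series. For ornithine decarboxylase (LOC100232922) the difference was 8.07 at day 35 and 6.56 at day 45. For the thaumatin-like gene LOC100261232 it was 7.87 at day 35 and 5.545 at day 45. LOC100261354, LOC100264056, LOC100248912 and LOC100252434 were chosen after their values were seen.

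Heat shock genes departed downward. The value was -5.19 for the 17.1 kDa class II gene LOC100266315, -5.08, -4.71 and -4.49 for the 17.3 kDa class II genes LOC100254252, LOC100854120 and LOC100249153, and -4.89 for the 22.0 kDa class IV gene LOC104881029. It was -3.41 for the 18.2 kDa class I gene LOC100249533 and -3.0 for the 18.1 kDa class I gene LOC100253085. For heat shock protein 21 (LOC100261354) it was -2.48. Among factors and larger chaperones it was -3.32 for HSF30 (LOC100245740), -2.57 for heat shock protein 83 (LOC100265661), -1.79 for the heat shock 70 kDa gene (LOC100265708) and -1.78 for HSP101. It was -2.55 for heat shock cognate 70 kDa protein 2 (LOC100265651). One member departed upward, a 17.1 kDa class II-like gene (LOC100252434) under 1 FPKM in all 4 day 45 libraries, at 2.65.

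Wall and lignin genes departed upward. The value was 3.46 for fasciclin-like arabinogalactan protein 11 (LOC100250171), 3.04 for a COBRA-like protein 4 gene (LOC100258803), 2.99 for galacturonosyltransferase 12 (LOC100264056), 2.83 for xylan glucuronosyltransferase 1 (LOC100248912), 2.15 for IRX9 (LOC100249957) and 1.89 for glucuronoxylan methyltransferase 3 (LOC100255018). It was 1.68 for CESA4 (LOC100241197) and 1.61 for CESA7 (LOC100248512). Laccase-4 gave 3.55 (LOC100240808) and 2.08 (LOC100267265), laccase-17 gave 3.15 (LOC100256283), C3H (LOC100263633) gave 2.02 and XCP1 (LOC104877917) gave 1.94.

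Of the other genes, upward values were 4.69 for MRIP1, an extensin-related protein that in MH stood at a mean of 0.742 FPKM at day 45 and 1599 FPKM at day 61, 4.26 for the basic blue protein LOC100248861, 4.13 for germin-like protein 5-1 (LOC100260641), 3.88 for early nodulin-like protein 1 (LOC100267820), 3.85 for CYP82D47 (LOC100245555) and 3.61 for the lipid-transfer protein DIR1 (LOC100256803). They were 3.12 for a thaumatin-like protein (LOC100261232), 2.75 for the pectinesterase inhibitor LOC104877746, 2.57 for organ-specific protein P4 (LOC100853060), 2.51 for ornithine decarboxylase (LOC100232922), 2.06 for the ethylene-forming oxidase LOC100232928, 1.88 for PCC13-62 (LOC100252547) and 1.80 for polygalacturonase At1g48100 (LOC100263206). Downward values were -2.21 for the UVR8 gene (LOC100247802), -4.63 for the GDSL esterase/lipase LOC100251646, -3.02 for gibberellin 20 oxidase 3 (LOC100249987) and -1.78 for auxin-induced protein 22A-like (LOC100854934).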

How the results depend on the processing

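Of the counts over all genes, those that moved by more than 1.5 times did so with the scaling of the libraries. Called lower genes numbered 4707 with median-ratio scaling, 4844 with quantile normalization and 4490 after rescaling without the seed filling genes, against 2416. In the same order, genes higher by more than 2-fold numbered 1762, 1798 and 2102 against 3692, and genes lower by more than 2-fold 1629, 1613 and 1586 against 785. Genes departing upward from the other days numbered 168 with median-ratio scaling against 263, and genes departing downward 152 with median-ratio scaling and 161 after rescaling, against 101. Leaving out 1 day 45 library at a time gave 7108 to 7476 genes called higher, 2016 to 2470 lower, 3291 to 3585 and 705 to 784 beyond 2-fold, and 185 to 211 and 74 to 92 departing. C4H (LOC100253493) turned to -0.74, -0.11 and -0.64 under the 3 scalings, CCoAOMT (LOC100243978) to -0.86, -0.31 and -0.77, and without 1 library at a time lay between -0.0882 and 0.213 (-0.02 without MH replicate 2), CCR (LOC100255334) to -0.49 with median-ratio scaling and -0.40 after rescaling, and the abundant metallothionein-like protein type 3 gene to 1.40 with quantile normalization. The cause was not tested. Deviations of same-numbered ZP and MH libraries at day 45 correlated at -0.04. Over the 28 pairs of groups the range was -0.60 to 0.73. Whether replicate numbers pair libraries cannot be told from these values. The summed storage protein level was higher in replicate 1 on each day in MH, and in replicate 2 on each day in ZP. With a replicate block 7617 genes were called higher and 2467 lower, 3720 and 807 beyond 2-fold and 271 and 106 departing. With 2 libraries per variety, each single value rests on few measurements, and the departure test called fewer genes whenever 1 library was left out.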
